A study of Mus musculus with 18 samples.

Results

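The protein component of the cytosolic ribosome was followed here in mouse liver, as the messenger RNA of 83 ribosomal protein genes. A gene was taken when its symbol was Rpl or Rps followed by a number, with at most a short suffix, or was Rplp0, Rplp1, Rplp2 or Rpsa. This gave 83 of the 19057 symbols of the expression table. They were 46 genes of the large (60S) subunit, 31 of the small (40S) subunit and 6 genes with a paralogue suffix (Rpl3l, Rpl7l1, Rpl22l1, Rpl32l, Rpl39l and Rps27l). Values were RPKM, a read count divided by transcript length and by library depth.

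Livers came from male ICR mice sampled at 10 weeks of age, with 3 mice in each of 6 groups. Con mice were controls given saline and STZ mice received streptozotocin, a toxin of the insulin-producing beta cells that is used as a model of type 1 diabetes. A10-FMT mice received STZ and then, by mouth, the pooled small intestinal microbiota of donors given alginate oligosaccharide (AOS) at 10 mg/kg, and Con-FMT mice received STZ and then the pooled microbiota of control donors. AOS mice were labelled as given AOS at 10 mg/kg without STZ, and STZ+AOS mice as given both. These last groups are known from the sample labels alone, which give no timing or route. STZ was therefore shared by all groups except Con and AOS. Because whole liver was read, fewer cells of a type and less RNA per cell cannot be told apart.

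A cytosolic ribosome carries 1 copy of nearly every ribosomal protein, and the genes are known to be expressed together at high levels in every tissue. Their messenger RNAs mostly begin with a run of pyrimidines, the 5′ terminal oligopyrimidine (TOP) motif, through which mTORC1 and the RNA-binding protein LARP1 control their translation when nutrients or insulin change. In the liver, a large share of protein synthesis serves secreted plasma proteins, and ribosome number is known to follow feeding and insulin. The values below are levels of messenger RNA, and not of protein or of ribosomes.

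Start site sequences were taken first, because the pyrimidine run is the feature the genes are known to share. RefSeq (GRCm38.p6) gave a promoter of 300 bases for 63 of the 83 genes, and a window of 30 bases was read from each, from 10 bases before to 20 bases after the annotated start. A run of at least 8 pyrimidines stood in the windows of 22 of the 63 genes (34.9%), beside 11.2% of 27025 promoters in all. The letters CTTTC stood in 14 windows (22.2%, beside 3.66% of all), on the sense strand. In the whole 300 bases, CCGGAAG, a core of sites for ETS family factors, stood on either strand in 25 promoters (39.7%, beside 9.12%). CTTTC lies within longer pyrimidine runs, so those counts overlap.

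The windows below are shown for 3 reasons: the genes with the clearest difference under STZ, 3 of the 4 genes with the longest pyrimidine runs, and pairs of a gene with its paralogue. Capitals mark the longest pyrimidine run in the window, read 5′ to 3′ on the strand of the gene.
Rplp0 (chr5:115559457-115559486, plus strand): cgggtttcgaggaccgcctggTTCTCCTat
Rps3 (chr7:99483690-99483719, minus strand): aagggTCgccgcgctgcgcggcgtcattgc
Rpl10a (chr17:28328461-28328490, plus strand): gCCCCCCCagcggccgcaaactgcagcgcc
Rpl27a (chr7:109519185-109519214, plus strand): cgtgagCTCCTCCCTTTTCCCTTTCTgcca
Rpl35 (chr2:39005112-39005141, minus strand): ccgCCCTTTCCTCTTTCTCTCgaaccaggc
Rpl7a (chr2:26910797-26910826, plus strand): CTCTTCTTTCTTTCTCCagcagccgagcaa
Rps27 (chr3:90213629-90213658, minus strand): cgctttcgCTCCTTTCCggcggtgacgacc
Rps27l (chr9:66946076-66946105, plus strand): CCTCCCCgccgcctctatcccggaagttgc
Rpl22 (chr4:152325716-152325745, plus strand): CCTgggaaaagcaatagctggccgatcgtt
Rpl22l1 (chr3:28805498-28805527, plus strand): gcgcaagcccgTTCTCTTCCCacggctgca
Rpl27a held the longest run of the 63 windows, at 20 bases, and Rps3 held none longer than 2 bases. Rpl27a, Rpl35 and Rpl7a were chosen after the sequences were seen, and 1 further gene, not shown, had a run of 17 bases like Rpl7a. A short run in the window says only that the letters are not next to the annotated start.

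Levels covered a wide range per transcript length. The highest means over the 18 livers were those of Rps2 (1015 RPKM), Rpl10 (956), Rpl41 (835), Rps26 (824) and Rps27 (774). In all, 72 of the 83 genes had a mean of at least 100 RPKM. Among genes of the 2 subunits proper, the lowest were Rpl29 (1.21), Rpl34 (6.61), Rps6 (9.38) and Rps15a (15.6). Rps6 encodes the substrate of the S6 kinases, and it was at 5.54 to 12.4 RPKM in the 18 livers. It was the lowest of the 31 small subunit genes by its mean.

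Many ribosomal protein genes have processed pseudogenes, which share reads with them. In the GENCODE M21 annotation, 80 of the 83 transcripts shared stretches of 50 bases with an annotated pseudogene. The median share of such stretches also found in another gene was 49.4%, and in Rps6 it was 84.6%, in Rpl29 66.8% and in Rpl34 37.9%. It was also 98.6% in Rps27 and 85.4% in Rpl10, which stood among the 5 highest levels. In the paper's methods the mapper was set to report repeat hits. The submitters' notes name another mapper, and which of them made these values is not settled. How shared reads entered the counts is not given in the sources used here, so the level of a single gene is uncertain.

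The balance of the subunits was nearly fixed. Summed RPKM of the 40S genes made up 40.9% to 41.9% of both subunits in all 18 livers. Within a library, the log2 distance of a gene from the median gene varied little between livers. Over the 74 subunit genes with a mean of at least 10 RPKM, its SD over the 18 livers ran from 0.05 in Rpl13 to 0.28 in Rpl36, with a median of 0.09. The genes therefore moved mostly together, and what differed between livers was mainly their common level.

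As a share of summed RPKM, the genes were highest in the STZ and STZ+AOS groups, and 1 STZ mouse stood apart. The 83 genes together took 2.82%, 3.97% and 3.57% of the summed RPKM in the 3 Con mice. They took 6.06%, 6.19% and 3.62% in the 3 STZ mice. STZ mice 1 and 2 were the highest of the 18 livers, and STZ mouse 3 was within the range of Con. The share was 4.30%, 4.42% and 4.59% in A10-FMT mice and 4.85%, 3.87% and 4.36% in Con-FMT mice. In AOS mice it was 3.92%, 3.47% and 3.38%, and in STZ+AOS mice 5.64%, 5.11% and 5.14%. On this measure, all STZ+AOS mice were above all AOS, Con, A10-FMT and Con-FMT mice. The groups were not apart in this way once each library was divided by a median-ratio size factor. The summed RPKM of the genes was then 27289 to 32355 in Con, 36954, 35392 and 24608 in STZ and 28871 to 33074 in STZ+AOS. It was 28392 to 31478 in A10-FMT, 27798 to 29692 in Con-FMT and 27168 to 29415 in AOS. On that scale STZ mice 1 and 2 were still the highest of the 18 livers and STZ mouse 3 was the lowest, while STZ+AOS overlapped with Con, AOS and both FMT groups.

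**Figure D1:**
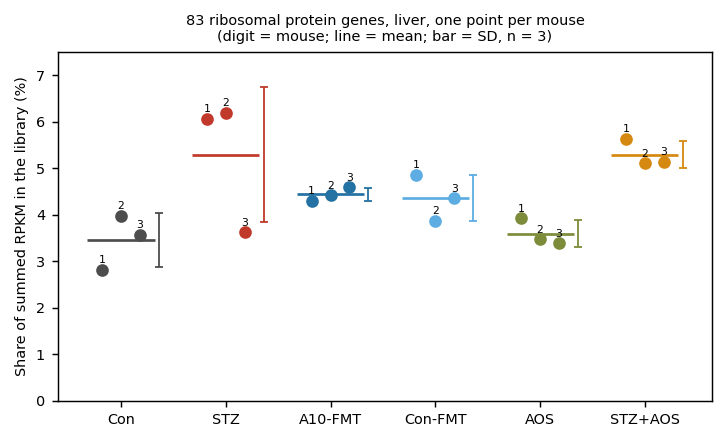
Share of the summed RPKM of each liver held by the 83 ribosomal protein genes (y axis, percent) in the 6 groups (x axis), with 1 point per mouse, the mean as a line and the SD as a bar (n = 3). STZ mice 1 and 2 stand at 6.06% and 6.19%, while STZ mouse 3 stands at 3.62%, beside 2.82% to 3.97% in Con.

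STZ mouse 3 was the lowest of its group for all 74 of those genes, and its value lay within the range of Con for 57 of them. STZ mice 1 and 2 were both above all Con mice for 72 of the 74. The mouse still carried the response to STZ elsewhere: Cyp4a10, a fatty acid hydroxylase used here as a check of the treatment, was at 696 RPKM in STZ mouse 3, beside 1264 and 1178 in STZ mice 1 and 2 and 1.29 to 2.77 in Con. Con mouse 1 was the lowest of its group for all 74 genes. These counts were made for the 74 genes only. No share over all genes stands beside them, so they are not shown to be particular to these genes. Each result that rests on STZ mouse 3 is given with and without it. The mouse was singled out by its low values in this same gene set. Results without it are therefore a description and give no separate support for a difference.

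Other measures differed between these livers as well. The 20 most abundant genes took 43.9% to 49.3% of the summed RPKM in Con and 25.2% to 36.1% in STZ, with STZ mouse 3 at 36.1%. Markers of Kupffer cells (6 of 6 in the table) summed to 52.8 to 82.2 RPKM in Con, 154 and 188 in STZ mice 1 and 2 and 83.3 in STZ mouse 3. Markers of stellate cells (5 of 5) summed to 74.6 to 91.3 in Con and 113 to 144 in STZ. Markers of sinusoidal endothelium (5 of 5) summed to 36.5 to 41.5 in Con, 48.9 and 49.0 in STZ mice 1 and 2 and 38.4 in STZ mouse 3. Markers of T and B cells (6 of 7) were low, at 2.01 to 2.43 RPKM in Con and 2.59 to 3.33 in AOS, and at 0.73 to 1.94 in the 12 STZ-treated livers, all below the other 6. Markers of cycling cells (4 of 4) summed to 0.23 to 1.44. Markers of red blood cells (6 of 6) ran from 280 to 9171. Hepatocyte markers (7 of 8) summed to 35479 to 57434 RPKM, which fitted the labelled tissue. The part of these measures in the results was not tested.

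In STZ against Con, 13 of the 80 tested genes were higher and 0 were lower at an adjusted p under 0.05 (limma, Benjamini-Hochberg over all genes tested). This was fewer than among all genes, of which 33.0% were called higher and 5.52% lower. The remaining 3 genes of the 83, Rpl3l, Rpl32l and Rpl39l, were below 1 RPKM in every liver and were not tested. The median log2 difference over the 80 genes was 0.33 (1.26-fold), beside 0.21 over all genes tested. Of the 80 differences 77 were above 0, beside 7968 of 10602 over all genes. The groups did not overlap for 3 of the 80 genes, beside 40.8% of all genes (STZ above) and 6.98% (STZ below), and in all 3 the STZ mice were above. The median SE of a difference was 0.18 for these genes and 0.13 for all genes. Leaving out 1 mouse changed the count: it was 1 without Con mouse 1, Con mouse 3, STZ mouse 1 or STZ mouse 2, 11 without Con mouse 2 and 71 without STZ mouse 3.

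The genes called higher were Rpl3, Rpl4, Rpl5, Rpl8, Rpl9, Rpl10a, Rpl36, Rplp0 and Rplp2 of the large subunit and Rps3, Rps4x, Rps28 and Rpsa of the small subunit. Rplp0 encodes the base of the stalk, the lateral arm of the large subunit that recruits elongation factors. It was at 287, 299 and 308 RPKM in Con and at 528, 547 and 381 in STZ. The lowest STZ mouse was above the highest Con mouse, and the log2 difference was 0.68 ± 0.15 (SE, adjusted p = 0.0062, limma). Rplp2, which forms the tip of the stalk together with Rplp1, was at 248, 297 and 293 in Con and 478, 422 and 295 in STZ, a log2 difference of 0.49 (adjusted p = 0.050, limma, just inside the threshold). Rplp1 was at 484, 598 and 596 in Con and 807, 788 and 447 in STZ (log2 difference 0.24, adjusted p = 0.39, limma).

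Rps3, a protein of the entry to the messenger RNA channel, was at 82.5, 99.6 and 95.4 RPKM in Con and 139, 142 and 99.9 in STZ. The log2 difference was 0.44 ± 0.15 (SE, adjusted p = 0.036, limma), and the groups did not overlap, though the gap between the nearest mice was small. Rpl10a was at 207, 271 and 260 in Con and 408, 401 and 272 in STZ, with a log2 difference of 0.53 ± 0.18 (adjusted p = 0.035, limma). Here too STZ mouse 3 stood only just above the highest Con mouse. Rpl36 had the largest difference of the 80 genes, 0.93 ± 0.31 on the log2 scale (adjusted p = 0.034, limma). Its mice were spread widely, at 171, 373 and 262 in Con and 652, 545 and 325 in STZ, so the groups overlapped. Rps28, a small protein at the exit of the messenger RNA channel, was at 269, 378 and 318 in Con and 586, 637 and 339 in STZ (log2 difference 0.66, adjusted p = 0.036, limma).

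Rpl5 and Rpl11 travel with the 5S ribosomal RNA and, outside the ribosome, bind Mdm2. Rpl5 rose from 151, 186 and 170 RPKM in Con to 279, 300 and 179 in STZ (log2 difference 0.55, adjusted p = 0.031, limma). Rpl11 was at 367, 519 and 399 in Con and 589, 607 and 388 in STZ, with a log2 difference of 0.29 (adjusted p = 0.25, limma). Rpsa, also described as a laminin receptor precursor, rose by 0.49 on the log2 scale (adjusted p = 0.047, limma), from 278, 350 and 329 to 548, 482 and 334. Rps27a, made as a fusion with ubiquitin, was at 193, 251 and 240 in Con and 322, 341 and 203 in STZ (adjusted p = 0.19, limma). Rps6 was at 8.98, 10.1 and 9.97 in Con and 8.89, 9.96 and 11.2 in STZ, with a log2 difference of 0.04.

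Of the other genes picked for their known roles, Rpl3 (0.55) and Rpl4 (0.45) were called. Those that were not called were Rps19, with a log2 difference of 0.53 (adjusted p = 0.062, limma), Rps14 (0.40), Rps2 (0.36), Rps15 (0.25), Rpl10 (0.27), Rpl13a (0.25), Rpl22 (0.17), Rpl38 (0.21) and Rpl39 (0.27). Both subunits had nearly the same median log2 difference, 0.33 over 46 large subunit genes and 0.35 over 31 small subunit genes. Of the large subunit genes 9 were called, and of the small subunit genes 4.

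**Figure D2:**
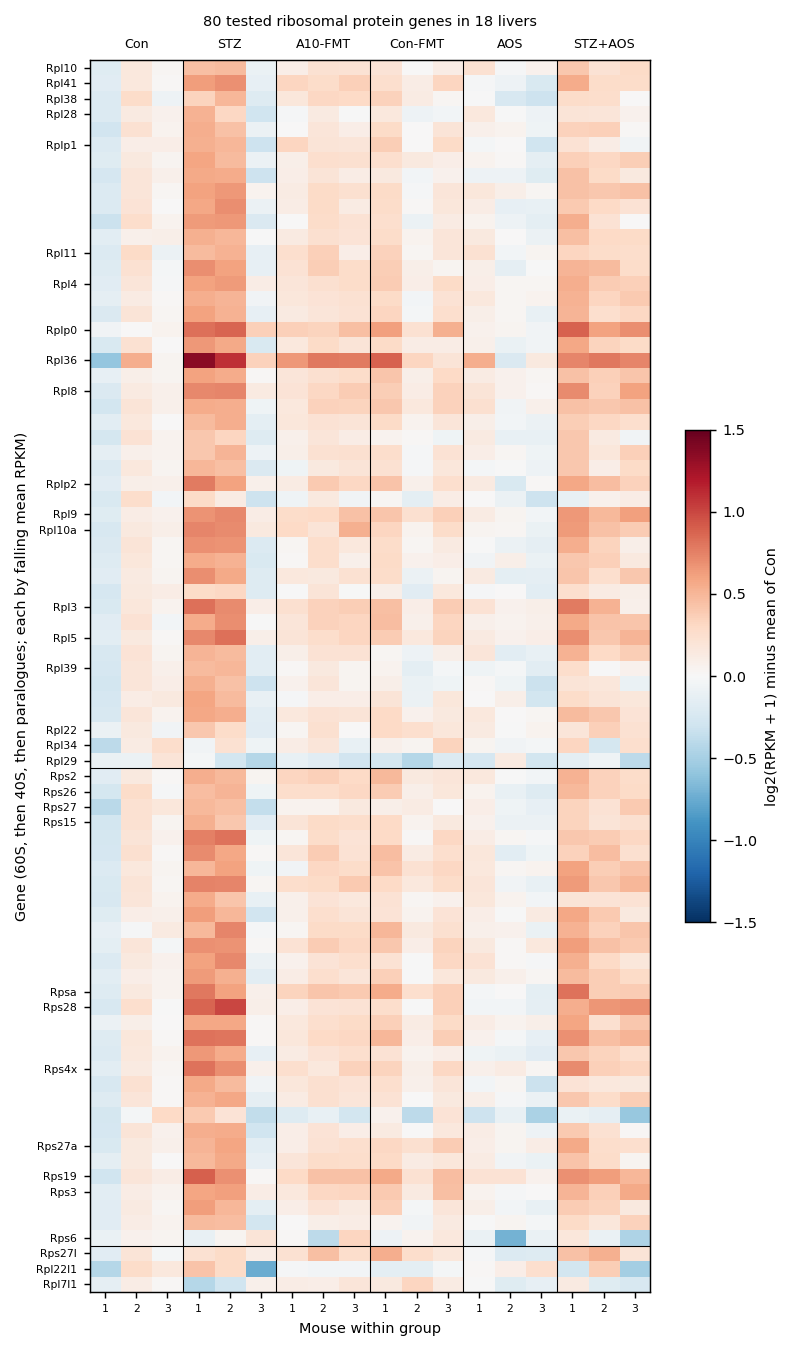
Difference of log2(RPKM + 1) from the mean of the 3 Con mice (colour, red for higher) for the 80 tested ribosomal protein genes (rows, by subunit and falling mean, with genes of the text labelled) in 18 livers (columns). STZ mice 1 and 2 are above Con throughout nearly all rows, STZ mouse 3 is within the range of Con for 57 of 74 genes, and Rpl36 has the widest range of colour.

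Without STZ mouse 3, the same comparison called 70 genes higher and 1 lower of the 80, beside 39.8% and 7.58% of all genes. The median log2 difference was then 0.55, beside 0.25 over all genes, and 74 of the 80 genes had both STZ mice above all Con mice, beside 54.2% of all genes. Rplp0 differed by 0.85 on the log2 scale, Rpl5 by 0.78, Rps28 by 0.94 and Rpl36 by 1.22. The gene called lower was Rpl7l1. The 9 genes not called were Rpl22l1, Rpl27, Rpl29, Rpl34, Rpl35a, Rpl38, Rps6, Rps27l and Rps29. The median was above 0 with and without this mouse. Leaving out the lowest STZ mouse of the set raised the differences by the choice itself. The median SE of the 80 genes went from 0.18 to 0.14, with 2 STZ mice left. The rise in calls is thus no separate support.

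The differences also depended on the scale of the values, since the median of all genes was itself 0.21 higher in STZ on the log2 scale. When each library was divided by a median-ratio size factor (0.83 to 0.92 in Con, 1.01 to 1.10 in STZ), the median difference of the 80 genes was 0.06 and 1 gene was called higher and 2 lower, beside 27.3% of all genes called in either direction (13.3% lower). The gene called higher was Rplp0, with a log2 difference of 0.42 (adjusted p = 0.026, limma), and those called lower were Rpl7l1 (-0.47) and Rpl29 (-0.40). Rpl29 was near the filter of 1 RPKM, at 1.31, 1.32 and 1.83 in Con and 1.43, 1.05 and 0.84 in STZ. Those deposited values overlapped. With that scaling and without STZ mouse 3, 30 genes were higher and 1 was lower, the median difference was 0.25 and the shares of all genes were 18.7% and 17.9% (36.7% together). Rplp0 was the only gene of the 80 that was called higher both on the deposited scale and after median-ratio scaling of all mice.

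The comparison of STZ+AOS with AOS asks the same question in other mice, since its group means share no library with STZ against Con. Its spread was estimated over all 18 libraries, Con and STZ mice included. The differences are therefore separate, but the p-values and calls are not fully so. Here 15 of the 80 genes were called higher and 0 lower, beside 31.8% and 6.11% of all genes. The median log2 difference was 0.33, beside 0.21 over all genes, the same medians as in STZ against Con. For 62 genes all STZ+AOS mice were above all AOS mice, beside 40.5% of all genes. Leaving out 1 mouse at a time gave 5 called genes without AOS mouse 3 or STZ+AOS mouse 1, 6 without AOS mouse 2, and 10 to 12 without one of the others.

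Of the genes called in these comparisons, 9 were called in both, which was 69.2% of the 13 and 60% of the 15. The share of all genes called in both was not calculated. Of all genes, 33.0% were called higher in STZ against Con and 31.8% in STZ+AOS against AOS, so the overlap is not shown to be particular to these genes. They were Rpl5, Rpl8, Rpl9, Rpl10a, Rplp0, Rplp2, Rps3, Rps28 and Rpsa. Rplp0 was at 313, 306 and 288 RPKM in AOS and 551, 453 and 482 in STZ+AOS, with a log2 difference of 0.71 ± 0.14 (SE, adjusted p = 0.0018, limma). Rps28 was at 309, 311 and 290 in AOS and 465, 505 and 513 in STZ+AOS (log2 difference 0.70, adjusted p = 0.011, limma). Rpl9 rose from 268, 253 and 239 to 388, 346 and 376 (log2 difference 0.54, adjusted p = 0.0093, limma). Rpsa was at 312, 319 and 288 in AOS and 560, 411 and 415 in STZ+AOS (log2 difference 0.58, adjusted p = 0.016, limma). All of these groups were separate.

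Across the 80 genes, the differences in these comparisons were related (Pearson's r = 0.82, Spearman's rho = 0.76), as a description over genes that share their libraries and so are not independent. After median-ratio scaling, Rplp0 was again the only gene called in STZ+AOS against AOS (log2 difference 0.46, adjusted p = 0.0099, limma), beside 12.2% of all genes called higher. The difference between the effects of STZ with and without AOS was tested as an interaction, for which 0 of the 80 genes passed the adjusted threshold and 0 had an unadjusted p under 0.05. Among all genes 0% passed. Leaving out STZ mouse 3, the median interaction was -0.23, again with 0 genes called beside 0% of all genes. Then 2 genes had an unadjusted p under 0.05. No share over all genes stands beside these unadjusted counts.

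**Figure D3:**
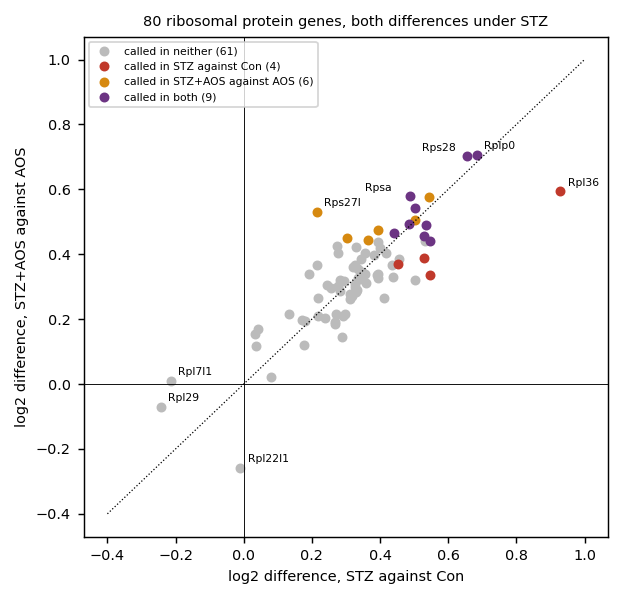
Log2 difference of each of the 80 tested genes in STZ against Con (x axis) and in STZ+AOS against AOS (y axis), coloured by whether limma called it (adjusted p under 0.05), with a dotted line of equal differences. Rplp0 and Rps28 stand highest on both axes together, Rpl36 stands far right at 0.93, and Rpl7l1, Rpl29 and Rpl22l1 stand apart below.

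Whether transplanted microbiota moved the genes back was asked by setting each FMT group against STZ. In A10-FMT against STZ, 0 of the 80 genes were called, beside 0.226% of all genes (0.0660% higher). Of the 80, 1 gene, Rpl7l1, had an unadjusted p under 0.05, beside 2212 of 10602 over all genes. It also had no overlap, and 7.61% of all genes were above STZ in that way. The median log2 difference of the 80 genes was -0.14, beside -0.05 over all genes. Of the 80 differences 75 were below 0, beside 6298 of 10602 over all genes. In Con-FMT against STZ, 0 genes were called as well, beside 0.00943% of all genes. Again Rpl7l1 alone had an unadjusted p under 0.05 and no overlap (8.32% of all genes were above STZ without overlap). No share over all genes stands beside the unadjusted p there. The median was -0.16, beside -0.03 over all genes. Both comparisons share the STZ mice, so their likeness is not a separate result.

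Rplp0 was at 383, 374 and 408 RPKM in A10-FMT and 455, 350 and 433 in Con-FMT. Every mouse of both FMT groups lay between Con and STZ mice 1 and 2. STZ mouse 3, at 381, lay inside the range of each FMT group, so both overlapped with STZ. Rps28 overlapped with Con in both. It was at 342, 368 and 371 in A10-FMT and 383, 316 and 407 in Con-FMT, beside 269 to 378 in Con. STZ mouse 3, at 339, was within that range of Con as well. Rps28 had the largest negative difference in A10-FMT against STZ, -0.48 on the log2 scale, with a 95% interval from -0.96 to 0.005 (adjusted p = 0.24, limma). Rplp0 differed by -0.30, with an interval from -0.64 to 0.03. These intervals hold no change and also a change of over 1.5-fold, so the data do not settle the size.

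Without STZ mouse 3, A10-FMT against STZ had 10 genes lower and 1 higher, beside 8.91% and 3.78% of all genes, with a median log2 difference of -0.38, and 74 genes were below both STZ mice in every A10-FMT mouse, beside 33.3% of all genes. Among the genes called lower were Rpl5, Rpl36a, Rplp0, Rps4x, Rps15a, Rps16, Rps18 and Rps28. In Con-FMT against STZ, 23 genes were lower and 1 was higher, beside 9.84% and 5.62% of all genes, and the median was also -0.38. There, 71 genes were below both STZ mice in every Con-FMT mouse, beside 26.8%. The gene called higher was Rpl7l1 in both. With median-ratio scaling as well, 10 genes were lower and 1 higher in A10-FMT against STZ (beside 7.21% and 6.75% of all genes), and 31 were lower and 1 higher in Con-FMT against STZ (beside 9.22% and 8.77%). With all 3 STZ mice, that scaling called 0 genes in either comparison, beside 0.896% and 0.689% of all genes (0.538% and 0.509% lower). In each, 2 genes had an unadjusted p under 0.05, beside 2352 of 10602 over all genes in A10-FMT against STZ. That number is not given for Con-FMT against STZ. The calls in these comparisons thus rest on leaving out STZ mouse 3. That mouse was singled out by its low values in this same gene set, so the calls give no separate support.

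Neither FMT group was told apart from Con by a called gene. A10-FMT against Con had 0 of the 80 genes called, beside 18.4% of all genes, with a median log2 difference of 0.19 beside 0.16 over all genes, and 3 genes had an unadjusted p under 0.05. All A10-FMT mice were above all Con mice for 28 genes, beside 41.7% of all genes. Con-FMT against Con had 0 called genes beside 19.4%, a median of 0.17 beside 0.19, and 5 genes with an unadjusted p under 0.05. There, 14 genes were above Con in every mouse, beside 40.7% of all genes. No share over all genes stands beside the 3 and 5 genes counted by unadjusted p. Rplp0 came nearest to the threshold in Con-FMT against Con, with a log2 difference of 0.46 (adjusted p = 0.056, limma), and it was 0.38 in A10-FMT against Con (adjusted p = 0.10, limma).

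The FMT groups did not differ from each other at a called gene. A10-FMT against Con-FMT had 0 of the 80 genes called, beside 0% of all genes, a median log2 difference of 0.02 and 0 genes with an unadjusted p under 0.05. For Rplp0 the values of A10-FMT lay inside the range of Con-FMT. AOS against Con likewise had 0 called genes, beside 0.00924% of all genes, a median of -0.01 and 0 genes with an unadjusted p under 0.05. STZ+AOS against STZ had 0 called genes beside 0% of all genes, a median of 0.01 and 0 genes with an unadjusted p under 0.05. Without STZ mouse 3 that median was -0.20, with 0 called genes beside 0.0185% of all genes. Then 21 genes had an unadjusted p under 0.05, and 56 were below both remaining STZ mice in every STZ+AOS mouse (7.55% of all genes). No share over all genes stands beside the unadjusted counts here, so the 21 are not shown to be particular to these genes.

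**Figure D4:**
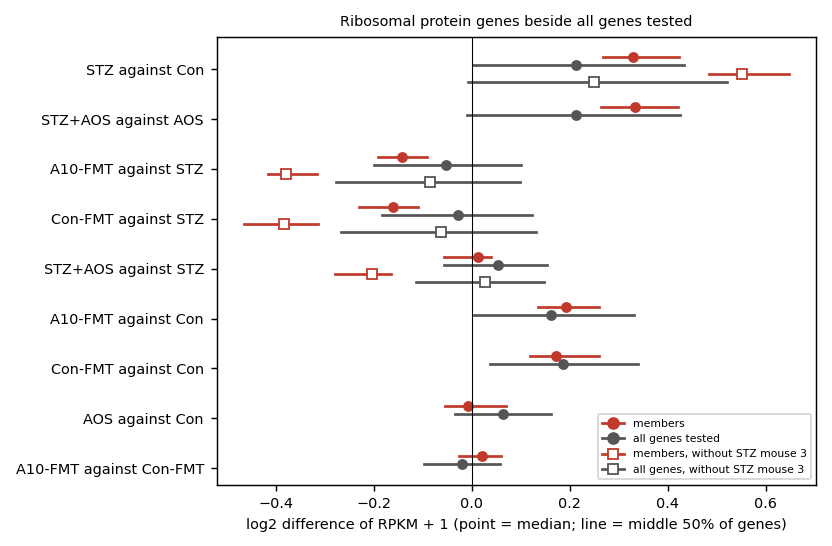
Median log2 difference (points) and its middle 50% of genes (lines) for the 80 ribosomal protein genes (red) and for all genes tested (grey) in 9 comparisons (y axis). Open squares leave out STZ mouse 3, which moves the median of the ribosomal protein genes from 0.33 to 0.55 in STZ against Con and from -0.14 to -0.38 in A10-FMT against STZ.

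Over all 12 livers of mice that had received STZ and 6 that had not, 2 of the 80 genes had every STZ-treated mouse above every other mouse, beside 10.7% of all genes. These were Rplp0 and Rps3. No gene was lower in all of them, beside 1.43% of all genes.

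A change in the make-up of the set, as distinct from its common level, was read by expressing each gene relative to the median of the 74 genes in the same liver. For genes far above 1 RPKM this measure is nearly untouched by the scaling of a library, and a gene can only move against the others. Because 1 was added to each RPKM, a gene near or under 1 RPKM falls when the common level rises. Rpl39l, at 0 RPKM in all 18 livers, was below in STZ+AOS against AOS for that reason. The shares of all genes hold such low genes too. They also move with the common level of the set, because the median subtracted is that of the 74 genes. They are therefore no background for genes set against their own median. In STZ against Con, 6 genes were above and 27 below in every STZ mouse, STZ mouse 3 included, beside 8.24% and 12.3% of all genes. In STZ+AOS against AOS, 3 genes were above and 34 below, beside 6.24% and 37.7% of all genes. Whether these counts are particular to the set is not settled by those shares. Below in both were 16 genes, among them Rpl10, Rpl22, Rpl28, Rpl39, Rplp1 and Rps15. Rpl29, with a mean of 1.21 RPKM, was also among the 16. The share of all genes below in both was not calculated, and this count too has no background beside it. No test was made of these counts.

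Rpl10, which completes the large subunit at the peptidyl transferase centre, was 1.36 to 1.40 above the median gene on the log2 scale in Con and 1.14 to 1.31 in STZ. It was at 1.40 to 1.56 in AOS and 1.24 to 1.31 in STZ+AOS. Rps15 was at 0.68 to 0.82 in Con and 0.58 to 0.61 in STZ, at 0.76 to 0.81 in A10-FMT, and at 0.71 to 0.77 in AOS and 0.55 to 0.64 in STZ+AOS. Rpl39, the smallest protein of the exit tunnel wall, was at -0.90 to -0.78 in Con and -1.06 to -0.94 in STZ, and the lowest values were those of STZ+AOS at -1.20 to -1.13.

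On the same measure, Rpl28 was the 1 gene lower in all 12 STZ-treated livers than in the other 6, beside 3.29% of all genes. That share also moves with the common level of the set, so it is no background for this gene. Rpl28, chosen after its values were seen, stood 1.00 to 1.15 above the median gene in the 6 livers without STZ and 0.69 to 0.93 above it in the 12 with STZ. STZ mouse 3 was on the STZ side for this gene, while its share of summed RPKM was within the range of Con. Rplp0 was 0.26 higher relative to the median gene in STZ than in Con, with overlap between the mice, and 0.26 higher in STZ+AOS than in AOS without overlap.

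**Figure D5:**
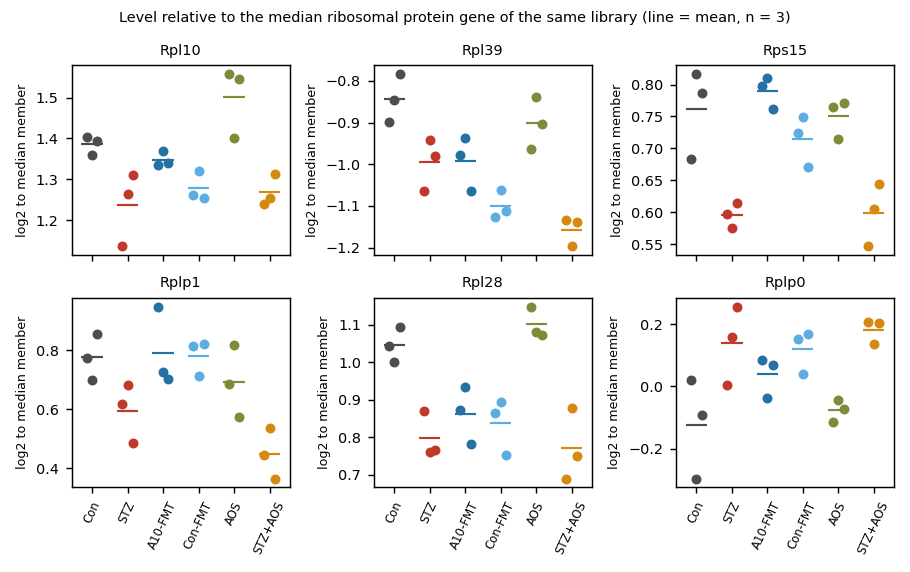
Level of 6 genes relative to the median ribosomal protein gene of the same liver (y axis, log2) in the 6 groups (x axis), with 1 point per mouse and the mean as a line (n = 3). Rpl10, Rps15, Rplp1 and Rpl28 are lower in every STZ mouse than in Con, and in every STZ+AOS mouse than in AOS.

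The paralogue genes were set beside the genes they resemble. Rpl3l, the form of Rpl3 found in heart and skeletal muscle, was at 0.15 RPKM or less in every liver, and Rpl39l, known from testis, was listed at 0 in all 18. Rpl32l reached 0.32 RPKM. Rpl3 was at 154 to 321 and Rpl39 at 151 to 255 RPKM. Rpl22 and Rpl22l1 stood at nearly equal levels, with means of 47.0 and 46.8 RPKM over the 18 livers. Rpl22l1 was at 34.4, 56.8 and 52.0 in Con and 63.2, 57.4 and 27.4 in STZ, a log2 difference of -0.01 (adjusted p = 0.98, limma), and Rpl22 was at 39.9, 46.8 and 40.7 in Con and 56.4, 51.5 and 37.6 in STZ.

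Rps27l, known as a target of p53, was lower than Rps27 per length, with means of 252 and 774 RPKM over the 18 livers. In STZ it was at 258, 268 and 237, beside 195, 251 and 215 in Con (log2 difference 0.21, adjusted p = 0.22, limma). In STZ+AOS it was at 298, 318 and 250, beside 216, 189 and 191 in AOS, and rose by 0.53 on the log2 scale (adjusted p = 0.0065, limma). The Rps27 difference in the same comparison was 0.34 (adjusted p = 0.19, limma).

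Rpl7l1, a nucleolar relative of Rpl7 that acts in ribosome assembly, had values that went the other way from its relative. It was at 21.7, 25.8 and 24.2 RPKM in Con, 17.5, 19.2 and 25.1 in STZ, 25.8, 25.6 and 27.2 in A10-FMT and 26.6, 30.0 and 25.98 in Con-FMT. All mice of both FMT groups were above all STZ mice. The log2 difference was 0.35 in A10-FMT against STZ (adjusted p = 0.16, limma) and 0.41 in Con-FMT against STZ (adjusted p = 0.12, limma). With that STZ mouse left out, these were 0.49 (adjusted p = 0.014) and 0.56 (adjusted p = 0.0073), and STZ against Con was -0.36 (adjusted p = 0.014, limma), beside -0.21 with all mice (adjusted p = 0.19, limma). In AOS it was at 23.7, 20.9 and 21.7, and in STZ+AOS at 26.3, 20.9 and 20.03. Rpl7 itself was at 287, 334 and 322 in Con and 476, 464 and 317 in STZ (log2 difference 0.39, adjusted p = 0.073, limma).

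Genes with a long and with a short pyrimidine run were set side by side. In STZ against Con, the median log2 difference was 0.28 over the 21 tested genes with a run of at least 8 and 0.34 over the 39 with a shorter run, and 1 and 9 of them were called. Without STZ mouse 3 the medians were 0.49 and 0.55. For CCGGAAG the medians were 0.32 over 24 genes with the letters and 0.33 over 36 without. Rplp0, Rps3 and Rpl10a had runs of 7, 2 and 7 bases in the windows shown above. These are counts of letters beside measured differences, and no test was made.

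Genes that work with the ribosomal proteins were read from 5 further lists in STZ against Con, where 33.0% of all genes were called higher. Of the 4 ribosomal proteins under other names, 0 were called: among them, Fau had a log2 difference of 0.61, Rack1 of 0.45 and Rpl36al of -0.22, with an adjusted p of 0.050 (limma) or more. Of 17 elongation factors and other messenger RNAs with a TOP motif, 8 were higher and 0 lower, with a median of 0.39. Eef2, the translocase of elongation, rose by 0.70 and Pabpc1, the poly(A)-binding protein, by 0.50. Both are of the class controlled with the ribosomal proteins.

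Of 46 tested genes of RNA polymerase I and ribosome assembly, 15 were higher and 0 lower, with a median of 0.25. This count was near the 33.0% of all genes. Eif6, which keeps the large subunit from joining, rose by 0.77, Gnl3 by 0.69, Pes1 by 0.62 and Utp20 by 0.36 on the log2 scale. Of 20 genes of mTORC1 and the control of TOP messenger RNAs, 14 were higher and 0 lower, with a median of 0.39. The largest of these was Eif4ebp3, an inhibitor of cap-dependent initiation, which rose by 2.39, followed by Sesn2, an inhibitor of mTORC1 induced by stress, at 1.10. Eif4ebp1 rose by 0.56 and Mtor by 0.42. The list thus held inhibitors and activators of the same pathway that rose together. Of 78 mitochondrial ribosomal protein genes, 19 were higher, a share below that of all genes, and 0 were lower, with a median of 0.22 beside 0.21 over all genes.

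These counts fell with median-ratio scaling, under which 2 elongation and TOP genes were higher, 2 assembly genes higher and 2 lower, 3 mTORC1 genes higher, and 1 mitochondrial gene higher and 6 lower. With STZ mouse 3 left out, 16 of the 17 elongation and TOP genes were higher (39.8% of all genes), with a median of 0.54 that was near the 0.55 of the ribosomal proteins. The assembly list had 15 higher and 1 lower with a median of 0.22, and the mitochondrial list 32 higher with a median of 0.29. In STZ+AOS against AOS, 28 of 47 assembly genes were higher with a median of 0.46, and 9 of 17 elongation and TOP genes with a median of 0.33, beside 31.8% of all genes. In Con-FMT against Con, 24 of 46 assembly genes were higher with a median of 0.38, beside 17.5% of all genes, while 0 of the 80 ribosomal protein genes were called and their median was 0.17. In A10-FMT against Con, 16 of 46 assembly genes were higher with a median of 0.26, beside 15.9% of all genes and a median of 0.19 over the ribosomal protein genes. The difference between these lists was not tested.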

How the data were processed

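The authors prepared poly(A) RNA libraries from liver, sequenced them on an Illumina HiSeq and, by their methods, mapped the reads with SOAPaligner; the submitters' processing notes name Bowtie 0.12.2 and build mm10. The values they deposited are RPKM, 1 per gene and library, and these were used without further scaling. The table held 19057 symbols, of which 3 occurred more than once and 26 looked like dates. Reads per library are not given by RPKM, so their sampling error was not calculated; summed RPKM per library was 621121 to 806937, and 9955 to 10409 genes reached 1 RPKM.

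Values were analysed as log2(RPKM + 1), keeping a gene that reached 1 RPKM in 3 or more of the libraries fitted. The model held 1 mean per group (limma 3.58.1 under R 4.3.3, eBayes with trend), with Benjamini-Hochberg adjustment over all genes of a contrast, on 12 libraries and 10602 genes for Con, STZ, A10-FMT and Con-FMT and on 18 libraries and 10822 genes for comparisons with AOS or STZ+AOS. Differences are on the log2(RPKM + 1) scale, which understates the change of low genes. The procedure was tested on simulated data. Nothing in the labels says more of the mice than their group, so p-values measure the spread between these livers.

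The genes, the further lists and the checks were chosen with earlier results of these data known. Named genes were, per comparison, up to 5 called genes in each direction with the largest difference and no overlap, the 5 highest and 5 lowest means, genes with a role given in the text, the paralogue pairs, and up to 4 genes per further list with the smallest p in STZ against Con; other genes named were chosen after their values were seen. Mice share the numbers 1 to 3 across groups and no source describes a pairing. Correlations of same-numbered mice ran from -0.25 to 0.47, and all were over 0.1 in 1 of 9 comparisons, A10-FMT against Con-FMT, where the block changed no call. Positions and transcript sequences came from GENCODE M21 (GRCm38), matched for all 83 genes. Alternatives were other scalings, filters, pseudocounts and fits, leaving out each mouse, and removing trends with transcript length (median 878 bases for the genes and 2759 for all) and GC content (51.6% and 50.1%). Results for some single genes are not reported here.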

Additional observations from a re-analysis of the deposited data

How the results depend on the processing

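Counts of called genes changed with many of the settings tried. The limits of the study were an adjusted p of at most 0.001 and an absolute log2 difference of at least 1. Here they were set on the limma results, while the study used another test (DEGseq), so counts under them are not its own. For STZ against Con, where 13 genes were called with a median log2 difference of 0.33, the count was 0 with the limits of the study, 3 with median-ratio scaling (1 higher), 54 when scaled by the sum of RPKM, 3 with quantile normalization, 1 with no filter, 1 with only the compared groups fitted, 8 with the length trend removed, 3 with the GC trend removed and 20 with all 6 groups. The median became 0.065 (median-ratio), 0.56 (sum of RPKM), 0.029 (quantile) and 0.11 (GC). Leaving out 1 mouse gave 1 to 71 calls and medians of 0.22 to 0.55. Over all genes, 38.5% were called, 27.3% with median-ratio scaling and 47.4% without STZ mouse 3. The other counts and medians have no value over all genes beside them. Mean summed RPKM was 772450 in Con and 656800 in STZ. Dividing by that sum thus raises genes throughout the table in STZ against Con. A replicate block on the mouse numbers, which no source pairs, gave 3 calls, and it changed no count in the other comparisons by over 1.5 times. For STZ+AOS against AOS the count of 15 was 0 with the limits of the study and 1 with median-ratio scaling. It was 61 by the sum of RPKM, 6 with quantile normalization, 2 with the GC trend removed and 5 to 12 without 1 mouse. Over all genes, 37.9% were called there, and 24.5% with median-ratio scaling. Mean summed RPKM was 734630 in AOS and 635170 in STZ+AOS. No share over all genes stands beside the other counts.

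Set against STZ and leaving out 1 mouse, A10-FMT had 0 to 11 calls (medians -0.38 to -0.023) and Con-FMT 0 to 24 (-0.38 to -0.047). Set against Con, Con-FMT had 0 to 1. Median-ratio scaling without STZ mouse 3, chosen after seeing the data, gave 31 calls for STZ against Con, and 11 for A10-FMT and 32 for Con-FMT when each was set against STZ. With Con as the reference, A10-FMT had 2 calls by the sum of RPKM, 3 with only the compared groups and 1 with the length trend removed, and Con-FMT had 1 with median-ratio scaling, 3 by the sum of RPKM and 1 each with no trend, the length or GC trend removed and all 6 groups. The other counts of calls here have no share over all genes beside them. Median shares of summed RPKM after quantile normalization are listed where they moved by at least the SD between mice of the group. They were 4.45% in Con, 4.25% in A10-FMT, 4.26% in AOS and 4.70% in STZ+AOS. Before it they were 3.57%, 4.42%, 3.47% and 5.14%. STZ, where that SD was widest at 1.45, is not listed by this rule.

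In STZ against Con, 12 of 34 named genes, none of them called, changed sign. With median-ratio scaling Rpl13a was -0.022, Rpl22 -0.091, Rpl34 -0.19, Rpl38 -0.053, Rplp1 -0.028, Rps15 -0.013, Rps27 -0.075, Rps27l -0.052 and Rps6 -0.20. By the sum of RPKM Rpl22l1 was 0.22 and Rpl7l1 0.0086. With quantile normalization Rpl11 was -0.057, Rpl13a -0.031, Rpl22 -0.075, Rpl34 -0.20, Rpl38 -0.034, Rplp1 -0.088, Rps15 -0.10, Rps27 -0.035 and Rps6 -0.22. With the length trend removed Rpl22 was -0.044, Rpl34 -0.16, Rps27 -0.018 and Rps6 -0.15, and with the GC trend removed Rpl22 was -0.069, Rpl34 -0.17, Rps27 -0.036, Rps27l -0.030 and Rps6 -0.20. Leaving out each mouse in turn, Rpl22l1 ran from -0.23 to 0.36, Rpl34 from -0.16 to 0.17, Rps6 from -0.037 to 0.12 and Rps27 from -0.0078 to 0.47. The cause of these changes was not tested. Depth is not known from RPKM, and the precision rests on 3 mice per group.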
